A study of Mus musculus with 25 samples.

Results

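DNA methylation in the mammary fat pads of 3 mice on the Mediterranean-style, 30% calorie-restricted regimen (MCR; mice 85, 95 and 96) was compared with that of 5 mice kept on the control diet (Control; mice 1, 2, 5, 10 and 13). The comparison held 8 of the 25 libraries of the study and 128600 of the 273804 CpGs listed on chromosomes 1 to 19, at 9707 genes. A CpG entered with an average coverage of at least 10 reads and a value in at least 3 mice of each group, which for MCR means every mouse. MCR mice were C57BL/6N, wild type, and had first become obese on a 60% high-fat diet (D12492) before their weight-loss diet. Control mice were of the same strain and genotype and received diet D12450J. Mice of other diets serve below as references, and their labels also list the 60% high-fat diet. They were Obese mice and mice on intermittent calorie restriction, 30% low-fat calorie restriction or an unrestricted low-fat diet. All mice, Control included, were injected with E0771 mouse mammary cancer cells in the 4th mammary fat pad 25 weeks after the diets were assigned, and the DNA came from the uninjected 9th pad at the tumour endpoint. The labels name the source as normal contralateral tissue, while the titles hold the word tumor and the sample characteristics list E0771 as the cell line. Pads were sampled only at the end, so the earlier obesity and the MCR diet cannot be told apart in these values.

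A mammary fat pad is mostly white adipose tissue, crossed by epithelial ducts, vessels, nerves and a lymph node, so each level is an average over many cell types. Cytosine methylation at CpG sites is usually low where a CpG island overlaps an active start and high along transcribed gene bodies, at 3' ends and between genes. At internal starts and enhancers it often lies between these extremes and differs between cell types. In such bulk DNA, a change in the share of a cell type and a change of methylation within its cells cannot be told apart. Methylation levels do not show which markers a tissue expresses, so the tissue label was not checked against expression.

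Reduced representation bisulfite sequencing (RRBS) reads short MspI fragments, so the measured CpGs come in short runs of neighbours. The following RefSeq sequences (GRCm38.p6, the assembly of mm10) show what such runs look like inside genes. Each is the 250 bases before a RefSeq start whose measured CpGs were annotated to a gene body and belonged to a run lower in MCR by 20 points or more. They were picked after the values were seen, as 4 of 6 such windows with at least 5 CpGs of the run. Letters run 5' to 3' on the gene's strand, and capitals mark the measured CpGs of the run.
Acot11, chr4:106799832-106800081, minus strand: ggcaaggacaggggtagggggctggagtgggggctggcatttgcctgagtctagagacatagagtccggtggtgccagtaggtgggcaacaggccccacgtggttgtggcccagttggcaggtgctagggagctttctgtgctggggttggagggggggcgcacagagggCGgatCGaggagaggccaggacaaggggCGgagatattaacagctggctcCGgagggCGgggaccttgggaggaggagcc
Ddr1, chr17:35702045-35702294, minus strand: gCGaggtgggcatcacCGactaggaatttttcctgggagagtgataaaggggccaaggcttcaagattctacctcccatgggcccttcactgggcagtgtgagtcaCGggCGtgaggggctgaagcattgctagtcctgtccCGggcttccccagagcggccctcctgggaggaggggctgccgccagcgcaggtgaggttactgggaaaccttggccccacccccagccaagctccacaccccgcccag
Hoxa5, chr6:52204588-52204837, minus strand: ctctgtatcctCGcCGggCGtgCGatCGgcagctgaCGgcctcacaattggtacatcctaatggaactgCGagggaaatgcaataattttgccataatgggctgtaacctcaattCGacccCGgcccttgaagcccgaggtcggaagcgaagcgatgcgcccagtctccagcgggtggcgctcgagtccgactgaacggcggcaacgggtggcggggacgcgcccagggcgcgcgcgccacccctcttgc
Arhgef2, chr3:88615893-88616142, plus strand: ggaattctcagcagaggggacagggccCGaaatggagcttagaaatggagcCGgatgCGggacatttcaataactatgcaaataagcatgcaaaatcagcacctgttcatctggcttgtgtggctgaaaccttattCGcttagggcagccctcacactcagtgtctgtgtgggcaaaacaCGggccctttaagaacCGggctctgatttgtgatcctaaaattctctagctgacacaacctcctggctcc

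At the start of Acot11, an acyl-CoA thioesterase of fat metabolism, the 5 marked CpGs had a level of 2.90%, 3.43% and 2.71% in MCR mice 85, 95 and 96, against 26.6%, 22.6%, 23.3% and 24.7% in Control mice 2, 5, 10 and 13. The run was nearly free of methylation in MCR, and the groups did not overlap (difference -21.3 points, SE 2.34, limma adjusted p = 3.61e-05). The window before Ddr1, a collagen receptor of epithelial cells, held 5 of the 7 CpGs of its run, whose level was 9.30%, 8.45% and 10.5% in MCR and 26.6% to 40.3% in Control mice. The window before Hoxa5, a homeobox gene, held 9 of the 13 CpGs of a run that the table annotates to the body of the neighbouring Hoxa3. That run averaged 35.4% ± 1.43 in MCR (SD, n = 3) and 65.6% ± 6.22 in Control (SD, n = 5). At Arhgef2 the run had 38.5% ± 1.22 in MCR and 58.8% ± 3.37 in Control, a difference of -20.2 points. All 9112 CpGs of the deposited table that lie within RefSeq windows of 300 bases around gene starts, on the autosomes other than chromosome 18, fell on a CG in the sequence.

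Outside the promoters, methylation was lower in MCR in gene bodies, in 3'UTRs and over intergenic CpGs as a whole. Over the 98292 CpGs measured in all 8 mice, gene body CpGs averaged 51.5% ± 0.344 in MCR (SD, n = 3) and 61.3% ± 1.60 in Control (SD, n = 5), a difference of -9.80 points. CpGs in 3'UTRs had 50.1% ± 0.512 in MCR and 60.1% ± 1.76 in Control, a difference of -10 points. CpGs the table gives as intergenic differed by -6.92 points, and those in the 200 bases before a start by -3.46 points. In each of the 16 classes tested, every MCR mouse lay below every Control mouse (two-sided exact permutation tests, each with a p of 0.0179, also after adjustment, the smallest that 3 against 5 mice allow). A small class outside these tests, the 89 intergenic CpGs in islands, had a mean of 13.3% in MCR and 11.7% in Control. The X chromosome, tested apart, averaged 41.6% ± 0.587 in MCR and 46.3% ± 1.03 in Control over 1553 CpGs, a difference of -4.70 points (exact permutation p = 0.0179). Among the autosomes the mean difference lay between -5.62 points on chromosome 13 and -10.4 points on chromosome 4.

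**Figure D1:**
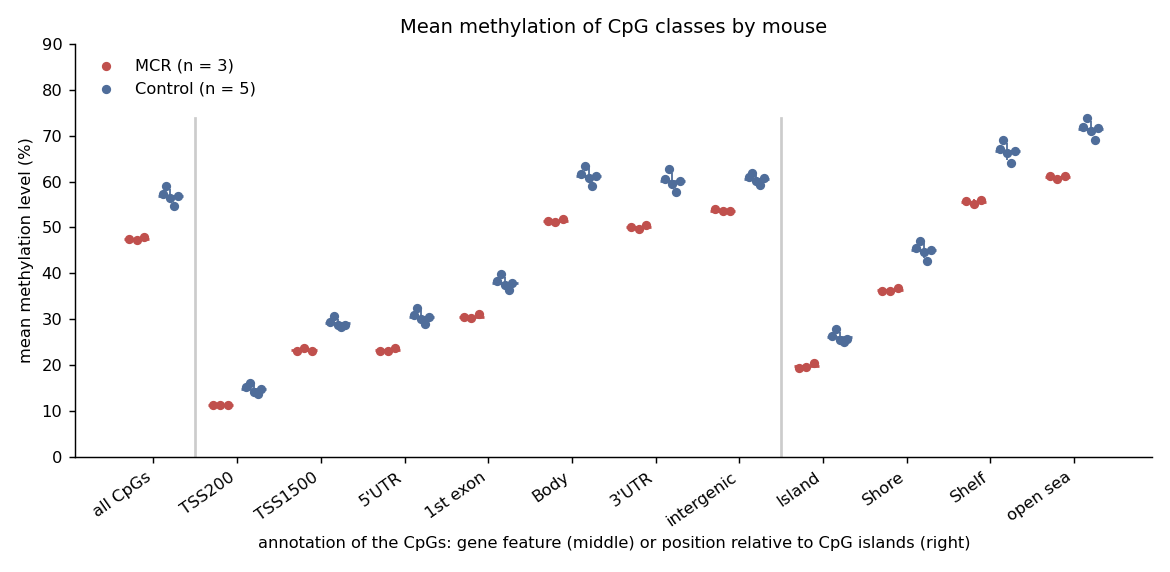
Mean methylation level (%, y axis) of CpG classes (x axis), with 1 point per mouse, MCR left of Control, a horizontal line at the group mean and a vertical line of 1 SD. In all classes drawn the 3 MCR mice lie below the 5 Control mice and close to one another, as in gene bodies, with 51.1% to 51.8% in MCR and 59.0% to 63.5% in Control.

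The size of the difference varied with the position of the CpG. Gene bodies lost more than intergenic CpGs, by 2.87 points (two-sided exact permutation of the within-mouse difference of class means, p = 0.0179, adjusted over 8 pairs to p = 0.0204), while gene bodies and 3'UTRs differed by 0.222 points (exact permutation p = 0.214). CpG islands showed a smaller difference than the open sea, the CpGs far from islands, by 4.22 points (exact permutation p = 0.0179, adjusted p = 0.0204). This order depended on the level of the classes. Among CpGs of 50% to 90% mean level in mice on intermittent calorie restriction (ICR), which are outside the comparison, islands differed by -14.7 points and open sea by -12.3 points, so that islands now lost 2.36 points more (exact permutation p = 0.0179, adjusted p = 0.0204). Shores turned round in the same way, with 1.86 points less loss than open sea over all CpGs and 0.814 points more at the matched level (exact permutation p = 0.0179 and adjusted p = 0.0204 in both). Leaving out a mouse took the adjusted p of each of these class differences above 0.05 for at least 4 of the 8 mice. For the matched difference of shores it did so for 7 of the 8. With 1 MCR mouse left out, the exact permutation p was 0.0476, the smallest that 2 against 5 mice allow (adjusted p = 0.0544). Loss of the call there cannot show dependence on a mouse. Without Control mouse 1, 2, 5 or 13, the matched difference of shores had an exact permutation p of 0.0571. The smallest that 3 against 4 mice allow is 0.0286. The matched difference of islands also had an exact permutation p of 0.0571 without Control mouse 5. These matched calls thus depended on which Control mice were included. The island minus open sea difference itself stayed between 4.02 and 4.55 points. On an arcsine scale the matched difference of shores was not called (exact permutation adjusted p = 0.306).

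The difference per CpG was largest at intermediate levels. Single CpGs were called by a limma fit with Benjamini-Hochberg adjustment at an adjusted p under 0.05, and 35.2% of all CpGs were called, 4.14% of all CpGs as higher and 31% as lower in MCR. At CpGs of 50% to 70% in ICR, the mean was 49.8% in MCR and 66.9% in Control, with 53.4% of 19916 CpGs lower and 5.79% higher. At 30% to 50% the mean was 31.2% in MCR and 45.7% in Control, and the share called higher was largest there, at 11%. At 70% to 90%, the band with the most CpGs (40803), the mean was 74.3% in MCR and 84.7% in Control, with 36.4% lower and 1.64% higher. Below 10% the mean difference was -1.02 points, and above 90% it was -5.0 points. Of the 98292 CpGs with a value in all 8 mice, those at 20% to 80% made up 52.2% to 52.9% in the MCR mice and 35.3% to 47.5% in the Control mice, while CpGs above 80% made up 19.4% to 19.8% in MCR and 30.3% to 42.4% in Control. With distance from the nearest RefSeq start, the mean difference was -4.69 points within 250 bases, -8.82 points at 1000 to 2000 bases, -10.5 points at 2000 to 5000 bases and -8.22 points beyond 50000 bases; chromosome 18 was not used for distances.

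**Figure D2:**
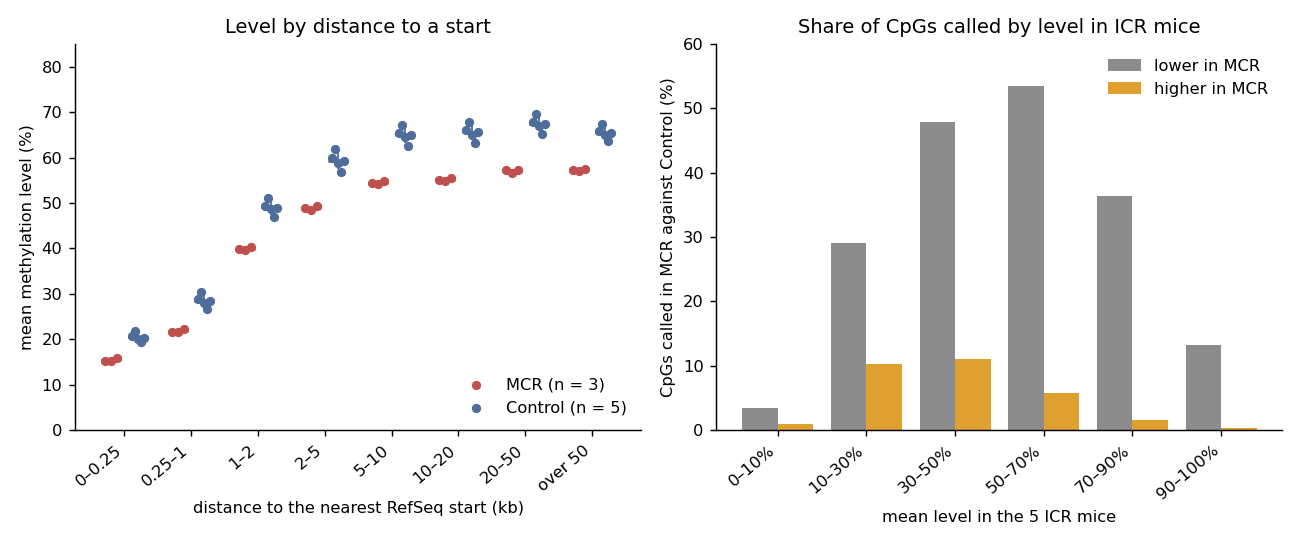
Left, mean methylation level (%) per mouse by distance to the nearest RefSeq start (kb), with 1 point per mouse, mean and SD, MCR left of Control; right, share of CpGs (%) called lower (grey) or higher (yellow) in MCR against Control by the mean level in the 5 ICR mice. The MCR mice lie below the Control mice at every distance, and both shares peak at intermediate levels, with 53.4% lower at 50–70% and 11% higher at 30–50%.

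Of 4148 gene bodies with at least 5 measured CpGs, 2860 were lower (68.9% of those tested) and 194 higher (4.68%) in MCR at an adjusted p under 0.05 (limma), with a median difference of -8.11 points and a median SE of 1.96 points. A difference of 20 points or more was seen at 338 lower and 22 higher gene bodies. The MCR mice lay below every Control mouse at 64.8% of gene bodies and above every one at 4.22%. The 10 called gene bodies of largest difference in each direction are described next, with the value of each mouse for those of best known function.

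Among the 10 lower gene bodies, Serpinh1, the collagen chaperone HSP47, had 11.4%, 11.4% and 11.5% in MCR mice 85, 95 and 96, against 59.2%, 75.7%, 52.7%, 48.0% and 63.9% in Control mice 1, 2, 5, 10 and 13. The 3 MCR mice were nearly identical and far below all Control mice, over 10 CpGs at chr7:99351428-99352045 (difference -48.5 points, SE 5.21, limma adjusted p = 7.25e-05). Dusp1, a phosphatase that switches off MAP kinases, had 18.7%, 15.4% and 16.7% in MCR, against 74.9%, 59.0%, 49.2% and 61.9% in Control mice 2, 5, 10 and 13, with no value for mouse 1. Slc39a13, the zinc transporter ZIP13, had 22.2%, 22.2% and 21.5% in MCR, against 67.2%, 73.2%, 57.5%, 55.9% and 72.2% in Control. For both genes the highest MCR mouse was more than 30 points below the lowest Control mouse. Gfi1, a transcriptional repressor of blood cell differentiation, had 5.27%, 6.41% and 13.1% in MCR, against 67.8%, 44.7%, 34.8% and 49.0% in Control mice 2, 5, 10 and 13, all 29 of its CpGs lying in an island. Rasal3, a Ras GTPase-activating protein of T cells, had 12.6%, 16.2% and 16.9% in MCR, against 54.8%, 68.4%, 56.6%, 44.9% and 58.5% in Control, and 51 of its 55 CpGs lay in an island. Ccm2l, a gene of endothelial cells, had 19%, 31.4% and 23.8% in MCR, against 65.5%, 73.3%, 66.4%, 53.9% and 67.0% in Control over 63 CpGs, none of them in an island. Nrgn, the calmodulin-binding protein neurogranin, averaged 28.7% ± 4.67 in MCR and 72.3% ± 6.94 in Control over 6 CpGs (SD, n = 3 and 4). The others were Tmem140, Eva1b (-40.7 points over 18 CpGs) and Gltpd2 (-37.7 points over 6 CpGs). Tmem140 had the largest difference of the named gene bodies (-52.9 points, SE 5.50, limma adjusted p = 0.000135), with values in only 3 Control mice. That difference rests on 6 CpGs at chr6:34867438-34867491.

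Among the 10 higher gene bodies, Ptpn6, the phosphatase SHP-1 that restrains immune receptor signalling, had 74.2%, 72.6% and 72.7% in MCR, against 50.1%, 46.8%, 47.9%, 51.3% and 46.8% in Control. Both groups were tight and 20 points or more apart (difference 24.6 points, SE 1.5, limma adjusted p = 4.36e-05). Ptprcap, a protein bound to the leukocyte phosphatase CD45, had 51.6%, 46.5% and 57.3% in MCR, against 9.34%, 13.6%, 13.2%, 26.3% and 22.4% in Control. Cd79b, a signalling chain of the B cell receptor, had 43.0%, 32.6% and 56.5% in MCR, against 17.5%, 8.96%, 19%, 22.3% and 19.4% in Control; the MCR mice spread widely but did not overlap the Control mice. P2rx7, an ATP-gated channel of macrophages and other cells, had 70.7%, 70.8% and 73.3% in MCR, against 27.9%, 46.8%, 43.9% and 35% in Control mice 2, 5, 10 and 13. H2-Oa, a chain of the class II-like molecule that tunes antigen loading in B cells, averaged 79.6% ± 6.79 in MCR and 53.3% ± 7.96 in Control (SD, n = 3 and 4). Arrb2, the receptor adaptor beta-arrestin 2, averaged 62.1% ± 3.37 in MCR and 33.6% ± 5.46 in Control (SD, n = 3 and 4). Tbx3, a T-box transcription factor needed for the mammary gland to form, had 40.7%, 54.5% and 49.8% in MCR, against 18.8%, 18.3%, 25.9%, 33.2% and 18% in Control, over 56 CpGs of which 46 lay in an island. Fam166b had the largest gain of the named gene bodies (57.2% ± 4.44 in MCR, 19.7% ± 6.22 in Control, difference 37.4 points), over 5 CpGs at chr4:43427519-43427605. The others were Plekhh3 (26.4 points over 91 CpGs) and Ehbp1, a protein of endocytic traffic (25.1 points over 5 CpGs).

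**Figure D3:**
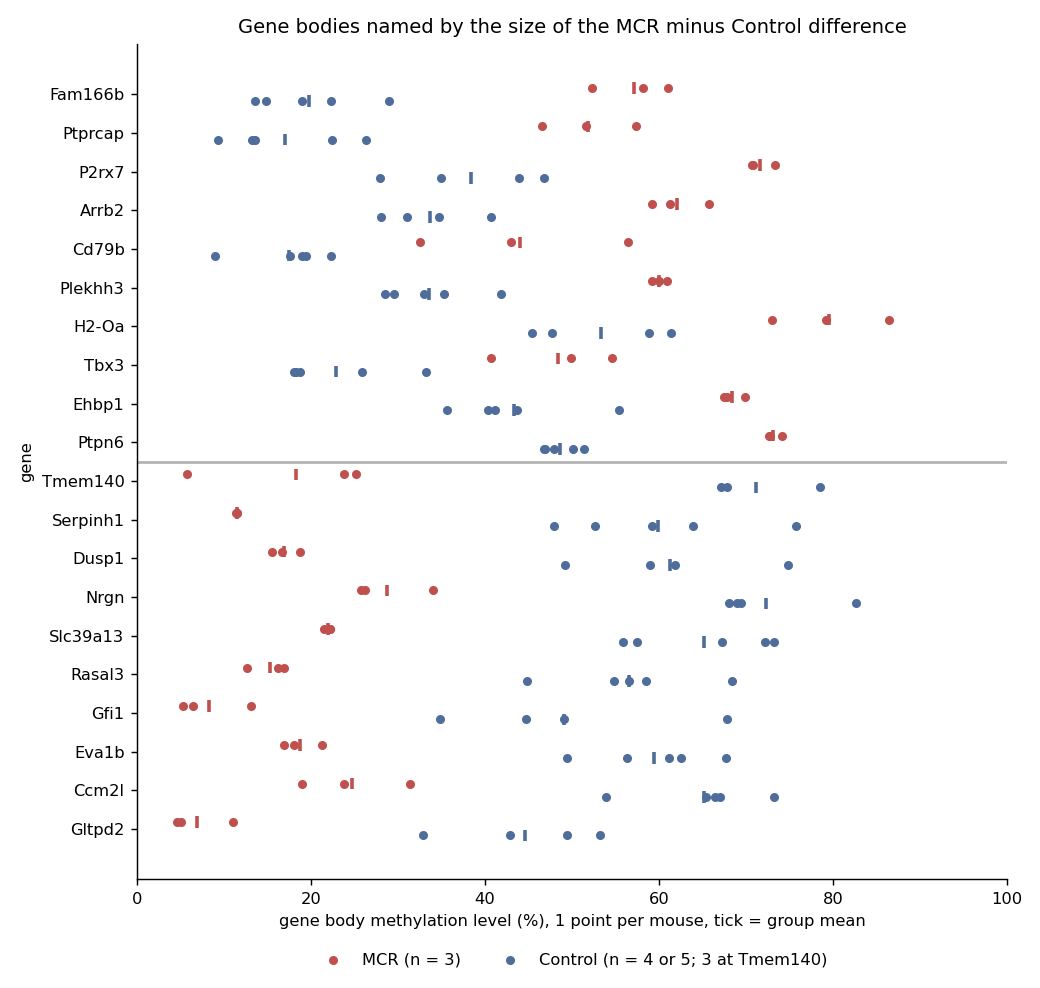
Methylation level (%, x axis) of the 20 gene bodies (y axis) of largest called difference, 10 higher above the line and 10 lower below it, with 1 point per mouse, a tick at the group mean and MCR drawn above Control. No MCR mouse falls within the range of the Control mice at these genes, and at Serpinh1 the 3 MCR mice lie between 11.4% and 11.5%.

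At 3' ends, 622 of 1038 3'UTRs with at least 3 CpGs were lower (59.9%) and 72 higher (6.94%), with a median difference of -9.20 points, and the MCR mice lay above every Control mouse at 6.26% and below every one at 55.7%. The largest losses included Spi1, which encodes PU.1, the master regulator of myeloid cells. Its 3'UTR had 3.35%, 10.4% and 9.54% in MCR, against 67.1%, 51.0% and 52.2% in Control mice 2, 5 and 13. Other losses were at H13, a protease that cleaves signal peptides, with 11.4%, 11.5% and 11.4% in MCR and 43.6% to 73.8% in Control over 40 CpGs, and at Hoxa3, with 7.52%, 9.79% and 8.49% in MCR and 32.5% to 72.1% in Control. Fads6 (-46.6 points) and Adprhl2, an ADP-ribose hydrolase (-46.3 points), completed the 5 largest. Among the 5 largest gains was Ccnd1, the cyclin D1 gene, with 59.2%, 65.2% and 64.2% in MCR, against 32.3%, 13.2%, 29.8%, 35.6% and 22.6% in Control. This value rests on 3 CpGs at chr7:144932566-144932598, and the groups did not overlap (36.2 points, SE 4.72, limma adjusted p = 0.000289). Mafg, a small Maf transcription factor, had 70.8%, 68.1% and 67.0% in MCR and 29.8% to 46.0% in Control. The remaining gains were at Asphd2 (45.6 points), March9, a ubiquitin ligase (41.7 points), and Plscr3, a lipid scramblase (32.8 points).

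Runs of at least 5 CpGs no more than 100 bases apart were formed without regard to annotation. Of 5754 runs, 3709 were lower (64.5%) and 555 higher (9.65%), with a median difference of -11.0 points, and the MCR mice lay above every Control mouse at 8.95% and below every one at 61.2%. A run of 7 CpGs in the 1st exon of Runx1, a transcription factor of blood cell development, had 5.70%, 2.99% and 7.85% in MCR, against 72.6%, 52.9%, 46.4% and 65.6% in Control mice 2, 5, 10 and 13. This island run was close to unmethylated in every MCR mouse, at a difference of -53.8 points (SE 5.47, limma adjusted p = 2.53e-05). Caskin2 had 8.07%, 9.99% and 6.96% in MCR and 48.4% to 72.9% in Control, and Nav1 and Card10, a scaffold of NF-kappa-B signalling, differed by -53.8 and -53.3 points. The run of Cldn15, a claudin of tight junctions, had the largest loss of the named runs, -56.9 points, at a median coverage of 14.9 reads. It had values only in Control mice 2, 5 and 13, and the Nav1 run in 4 Control mice. Among the gains, a run of 9 CpGs in Arhgap45, a GTPase-activating protein of blood cells, had 76.3%, 80.1% and 74.1% in MCR, against 21.6%, 17.8%, 31.0%, 33.0% and 29.8% in Control. It had the largest gain of any named run, 50.2 points (SE 3.65, limma adjusted p = 1.08e-05). Myo7a, an unconventional myosin, had 86.9%, 86.3% and 85.7% in MCR and 30.9% to 58.5% in Control at a median coverage of 231.6 reads. Shisal1 (48.3 points), a run in the body of Mafg (47.5 points) and Dok3, an adaptor of immune receptors (45.8 points), were the other gains.

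Runs annotated as intergenic, listed under their nearest gene, also moved in both directions. Beside Cbx7, a Polycomb subunit, 6 CpGs had 15.9%, 7.16% and 18.4% in MCR, against 59.6%, 68.7%, 59.8%, 54.0% and 52.5% in Control (difference -45.1 points, SE 3.90, limma adjusted p = 1.29e-05). Runs beside Cdk9, the kinase of transcription elongation, Slc45a4, Tpcn2 and Tmem151a were lower by 27 points or more. The largest intergenic gain, beside Dnajb8, a chaperone, was 80.2%, 74.3% and 77.1% in MCR and 24.7% to 53.3% in Control. The other 4 intergenic gains lay close together beside Tbx3os1, the antisense gene at Tbx3, so they share a locus with the gain in the Tbx3 gene body. They ranged in difference between 13.7 and 29.8 points; the groups did not overlap at 2 of them and overlapped at the other two. At the run of chr5:119662568-119662749 the call was lost without MCR mouse 85 (11.4 points, adjusted p = 0.069).

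Gains and losses also occurred within the same gene. Of 829 genes with at least 2 called runs, 202 had runs called in both directions. Over all runs, 9.65% were called higher and 64.5% lower, and whether 202 exceeds what these shares give was not tested. Of 410 genes with a called body and 3'UTR, 36 had them in opposite directions, beside 4.68% of all gene bodies and 6.94% of all 3'UTRs called higher. A body run of Spi1 had 78.1%, 82.8% and 79.5% in MCR, against 35.9%, 31.7%, 49.2%, 60.1% and 46.9% in Control, 18264 bases away from the 3'UTR run given above, which was 49.0 points lower. In Dok3 the run at the 1st exon was 45.8 points higher, with 77.2%, 73.0% and 72.0% in MCR and 15% to 41.4% in Control, while 4766 bases on, the run at the 3' end was 38.9 points lower, with 37.7%, 31.9% and 38.1% in MCR and 67.0% to 82.6% in Control. Rasa3, a Ras GTPase-activating protein of platelets and leukocytes, had a body run at 75.6%, 73.3% and 75.7% in MCR, against 43.3%, 39.3%, 44.4%, 36.2% and 40.5% in Control, and another at 17%, 8.33% and 0% in MCR, against 47.3%, 57.5%, 61.2% and 65.4% in Control mice 1, 2, 5 and 13. The Rasa3 runs lay 72562 bases apart. Crispld2, a secreted protein, had a gain of 37.3 points and a loss of 50.8 points at runs 22457 bases apart. Gse1 had a gain of 39.3 points in its body and a loss of 45.8 points in its 3'UTR annotation, 51551 bases apart. The runs of Crispld2 and Gse1 are also annotated to Gm20388. The mean over all body CpGs of Dok3 was 12.6 points lower.

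**Figure D4:**
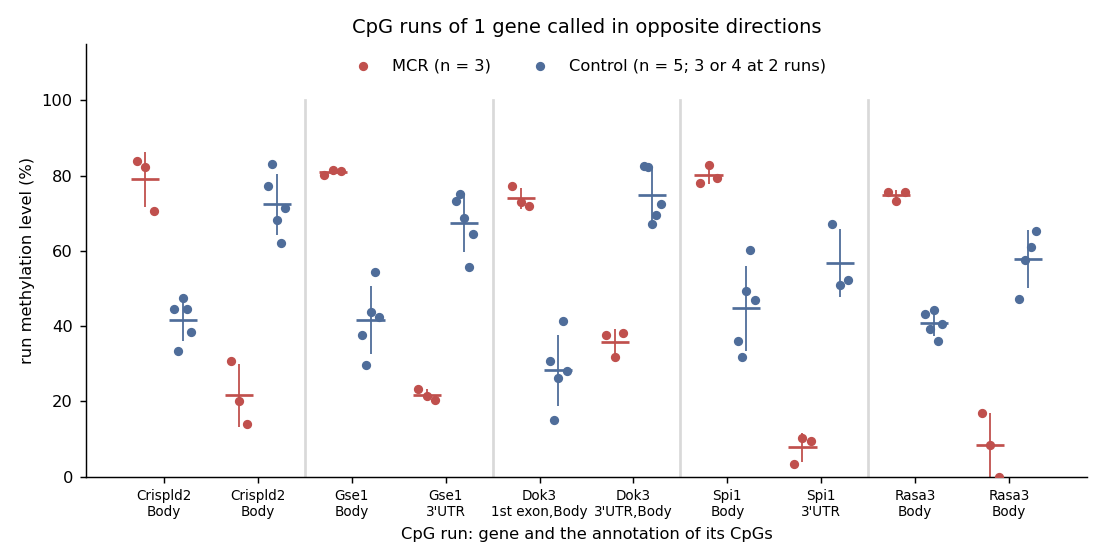
Methylation level (%, y axis) of paired CpG runs in the 5 genes (x axis, with the annotation of the run) with the largest opposite differences, 1 point per mouse, mean and SD, MCR left of Control. In each gene the MCR mice are above all Control mice at 1 run and below all of them at the other.

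Single CpGs reached differences above 60 points in both directions. Neighbouring CpGs of Cd276, whose product B7-H3 modulates T cells, were 63.6 and 61.2 points higher, and a CpG of Thy1, a surface glycoprotein, was 61.4 points higher with values in 3 Control mice. A CpG of Lgmn, a lysosomal protease, was 68.2 points lower, with 15.4%, 14.3% and 23.5% in MCR and 67.7% to 100% in 4 Control mice. At chr8:120004501 in Crispld2 the level was 51.5%, 16.7% and 0% in MCR, against 93.1%, 100%, 75.8%, 100% and 88.1% in Control, the first CpG of the run with the loss. At position 153071816 of chromosome 2 in Ccm2l it was 23.1%, 21.2% and 14.3% in MCR, against 63.6%, 100% and 100% in Control mice 1, 5 and 13, at an average coverage of 11.7 reads. Values of 0% and 100% at single CpGs are read from the table without their read numbers, which limits their precision.

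Genes of adipocytes were mostly less methylated in MCR at the measured CpGs of their bodies. Of 15 measured adipocyte genes 13 were lower and none higher (limma adjusted p under 0.05), at a median of -11.3 points, beside 68.9% lower and a median of -8.11 points over all gene bodies. Slc2a4, the insulin-responsive glucose transporter GLUT4, had 59.6%, 52.7% and 57.9% in MCR, against 86.5%, 91.4%, 77.1%, 75.4% and 82.8% in Control. Its value rests on 6 CpGs at chr11:69945330-69945502. Aqp7, the glycerol channel, differed by -24.9 points, and Pnpla2, the triglyceride lipase ATGL, had 62.7%, 64.7% and 65.5% in MCR and 79.8% to 92.5% in Control. Lipe, the hormone-sensitive lipase, was not called, with 45% ± 4.28 in MCR and 42.8% ± 2.89 in Control (difference 2.19 points, adjusted p = 0.403), and neither was Klf15. Of 7 thermogenic genes 5 were lower (71.4%, near the 68.9% of all gene bodies) at a median of -11.8 points. Among them were Esrra, an orphan receptor of mitochondrial genes (55.9% in MCR, 78.6% in Control), and Kcnk3, a potassium channel (50.4% in MCR, 66.5% in Control).

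Vessel and matrix genes had the same direction. Of 14 endothelial genes 12 were lower (85.7%) and 1 higher (7.14%), beside 68.9% and 4.68% of all gene bodies. The list median of -13.8 points was the lowest of the 20 lists, beside -8.11 points over all gene bodies. Robo4, a guidance receptor of vessels, had 26.7%, 33.0% and 32.2% in MCR, against 62.3%, 69.5%, 60.7%, 68.3% and 62.2% in Control. Egfl7, a secreted vessel factor, had 32.4% ± 0.786 in MCR and 59.4% ± 3.45 in Control, and Vwf, von Willebrand factor, was the gene called higher, with 70.5% in MCR and 63.7% in Control. Of 19 fibroblast and matrix genes 16 were lower (84.2%) and 1 higher (5.26%), Thy1, whose groups overlapped, at a median of -11.9 points. Col1a1, a chain of type I collagen, had 46.0%, 44.9% and 42.9% in MCR, against 64.5%, 65.0%, 59.4%, 60.6% and 59.8% in Control. The gene body of Mmp14, a membrane-bound matrix protease, differed by -20 points.

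Leukocyte lists held gains beside losses, with medians nearer to 0 than that of all gene bodies; the difference between lists was not tested. Of 24 genes shared by leukocytes 13 were lower (54.2%) and 4 higher (16.7%), beside 68.9% and 4.68% of all gene bodies. The list median was -5.95 points, and the 4 higher genes were Ptpn6, Vav1, Dok2 and Selplg. Vav1, an exchange factor of antigen receptor signalling, had 61.7%, 71.8% and 70.4% in MCR, against 40.9%, 41.5%, 47.0%, 50.6% and 44.8% in Control. Dok2, an adaptor, differed by 20.3 points. The largest losses in the same list were at Rasal3, given above, Runx3 (31.4% in MCR, 56.1% in Control) and Runx1 (47.2% in MCR, 68.5% in Control). With CpGs that had a value in all 8 mice, the Runx1 body difference was -6.87 points and not called (limma adjusted p = 0.232). T and NK cell genes counted 4 lower (36.4%) and 2 higher (18.2%) of 11, at a median of -2.63 points. The higher ones were Gata3, which is also in the luminal list, and Ubash3a. Ubash3a, a negative regulator of T cell receptors, had 71.8% in MCR and 51.3% in Control. B cell genes counted 3 lower (42.9%) and 1 higher (14.3%) of 7, the higher one being Cd79b. Macrophage and myeloid genes counted 6 lower (50%) and 2 higher (16.7%) of 12. The 2 were Spi1, whose body had 79.0%, 86.4% and 73.7% in MCR, against 57.2%, 49.9%, 60.7%, 66.5% and 60.6% in Control, and Cyba, a subunit of the phagocyte oxidase (48.4% in MCR, 32.3% in Control). Mean gene body levels over the list of genes shared by leukocytes lay between 57.1% and 58.8% in the MCR mice and between 61.4% and 64.6% in the Control mice. The part of cell composition in these values was not tested.

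**Figure D5:**
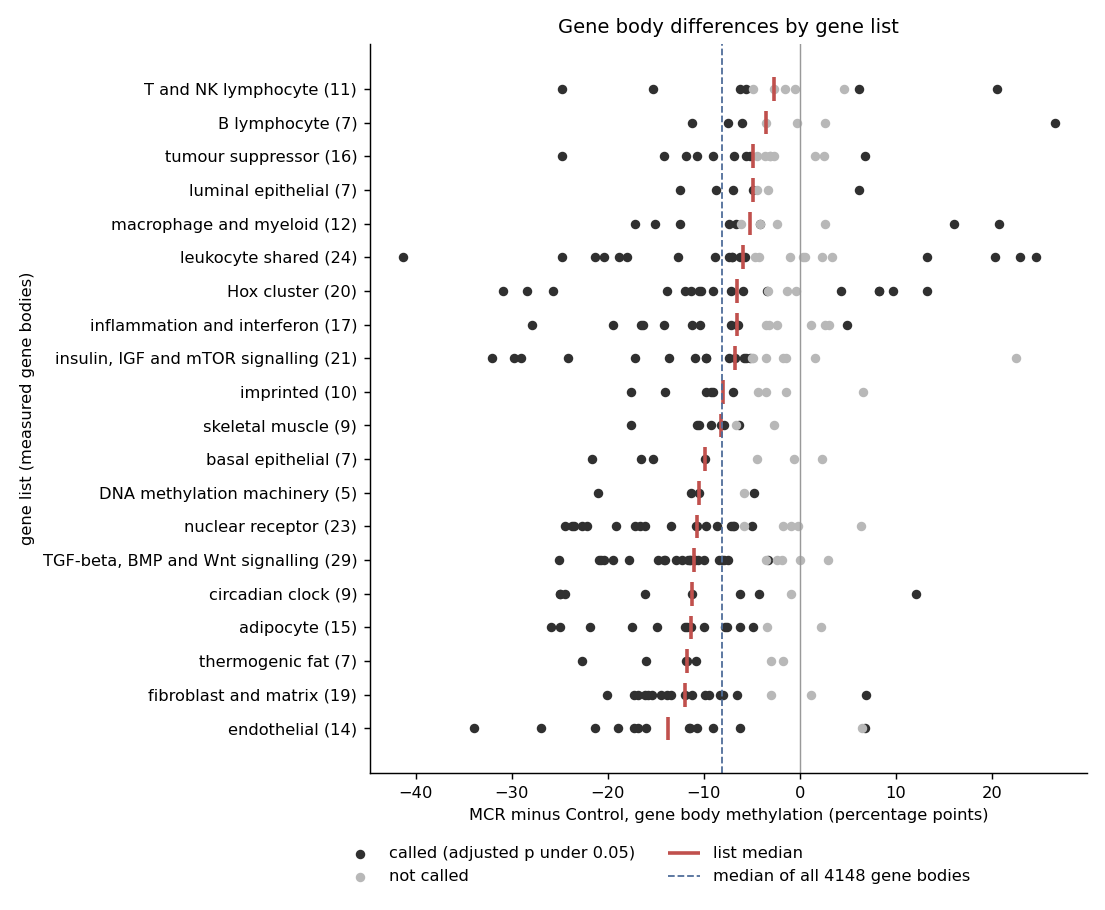
MCR minus Control difference in gene body methylation (percentage points, x axis) for the measured members of 20 gene lists (y axis, number of members in brackets), dark where called and light where not, with the list median in red and the median of all 4148 gene bodies as a dashed line. Every list median is below 0, between -13.8 points in endothelial genes and -2.63 points in T and NK cell genes.

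Few epithelial genes were measured. Beside 68.9% lower and 4.68% higher over all gene bodies, of 7 luminal genes 4 were lower (57.1%) and 1 higher (14.3%). The higher one was Gata3, a luminal transcription factor, with 32.2%, 33.0% and 35.1% in MCR, against 26.3%, 25.4%, 29.3%, 26.4% and 28.9% in Control. Grhl2, an epithelial transcription factor, had the largest luminal loss (9.32% in MCR, 21.8% in Control), which was not called without MCR mouse 85 (adjusted p = 0.0527) or 95 (adjusted p = 0.0643). Of 7 basal genes 4 were lower and none higher, with Col17a1, a hemidesmosome collagen, at 58.9% in MCR and 80.6% in Control. Of 9 skeletal muscle genes, measured as a sign of adjoining muscle, 7 were lower at a median of -8.20 points.

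Of 21 genes of insulin, IGF and mTOR signalling 14 were lower (66.7%, beside 68.9% of all gene bodies) and none was called higher, at a median of -6.75 points, beside -8.11 points over all gene bodies. Irs3, an insulin receptor substrate of mouse fat cells, had 36.9%, 40.2% and 41.5% in MCR, against 77.8%, 73.6%, 65.2%, 70.2% and 71.2% in Control, a difference of -32.1 points. Irs2, another substrate, had 34.0%, 33.2% and 35.3% in MCR, against 55.8%, 63.7%, 55.7%, 53.4% and 62.7% in Control, over 5 CpGs at chr8:11003522-11003814. Igfbp6, an IGF-binding protein, and Inppl1, the lipid phosphatase SHIP2, differed by -29.7 and -29.0 points. The Igfbp6 value rests on 6 CpGs at chr15:102145391-102145469. Sgk1, a kinase of this pathway, was at 67.9% in MCR mouse 85 alone, at 0% and 1.66% in the other MCR mice and at most 2.86% in Control, and was not called (adjusted p = 0.187). Among 29 genes of TGF-beta, BMP and Wnt signalling 24 were lower (82.8%) and none higher, beside 68.9% and 4.68% of all gene bodies. Their median was -11.1 points, beside -8.11 points over all gene bodies. The losses were led by Dkk3, a Wnt modulator (64.9% in MCR, 90% in Control in 3 mice each), Ski, and the inhibitory Smad7 and Smad6. Of 17 inflammation genes 10 were lower (58.8%) and 1 was higher (5.88%), near the 68.9% and 4.68% of all gene bodies. Stat5b was at 49.1% in MCR and 77.0% in Control, and Stat3, the higher one, at 62.0% in MCR and 57.1% in Control.

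Counts for clock genes, nuclear receptors and the methylation machinery were near the background of 68.9% lower. Of 9 circadian genes 7 (77.8%) were lower and 1 higher, Hlf (11.1%, beside 4.68% of all gene bodies), at a median of -11.2 points. Nr1d1, the repressor REV-ERB-alpha, had 38.0%, 39.1% and 39.4% in MCR, against 65.2%, 67.5%, 61.3%, 59.9% and 62.4% in Control. Cry2, a repressor of the clock, had 61.2%, 54.4% and 58.7% in MCR and 76.1% to 91.7% in Control, and Csnk1e, a kinase of clock proteins, differed by -25.0 points. Of 23 nuclear receptor genes 18 (78.3%) were lower and none higher, at a median of -10.7 points, including Thra, the thyroid hormone receptor alpha, and Rarg, a retinoic acid receptor (33.7% in MCR, 55.8% in Control). Of 5 genes that set or remove methylation 4 were lower. Tet3, a dioxygenase that oxidises methylcytosine, had 37.4%, 36.3% and 36.7% in MCR, against 59.7%, 61.5%, 58.0%, 54.0% and 55.8% in Control, and Dnmt3a, a de novo methyltransferase, differed by -11.3 points.

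Of 20 Hox genes 12 were lower (60%) and 5 higher (25%), beside 68.9% and 4.68% of all gene bodies, at a median of -6.53 points. These bodies are not all separate. The Hoxa3 body spans that of Hoxa4, and Hoxc5 and Hoxc10 start at the same CpG, as do Hoxd3 and Hoxd4. Hoxb3 had 31.7%, 31.2% and 33.7% in MCR, against 64.3%, 70.9%, 61.3%, 56.8% and 62.1% in Control, and Hoxa4 and Hoxa3 differed by -28.4 and -25.7 points. Hoxa11 had 30.3%, 30.3% and 32.8% in MCR, against 15.9%, 13.9%, 18.9%, 20.7% and 19.9% in Control, the largest gain of the list, followed by Hoxb6 (24.6% in MCR, 14.8% in Control). Of 10 imprinted genes 6 were lower and none higher at a median of -7.95 points, with Cd81 at 15.9% in MCR and 33.4% in Control. Of 16 tumour suppressor genes 8 were lower and 1 higher, Rassf5, at a median of -4.84 points.

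The named regions were also read in 13 mice of the other diets. Obese mice 27, 28 and 40 and mouse 46 on the unrestricted low-fat diet were left out. Earlier results of these data had placed them far from their groups. Obese mice are therefore represented by mouse 22 alone. These regions were chosen on MCR against Control, so the following is a description only, and it uses the same Control mice. Of the 50 named gene bodies, 3'UTRs and runs outside the gene lists, the low-fat calorie-restricted (LFCR) mice 63 and 67 were beyond every Control mouse in the MCR direction at 49 of 50 and 49 of 49 with a value. They were at or beyond the nearest MCR mouse at 37 and 29. Mouse 42 on the unrestricted low-fat diet (LFD) was beyond every Control mouse at 48 of 49 and at or beyond the nearest MCR mouse at 18. The other 10 mice were at or beyond an MCR mouse at 0 to 7 regions. Beyond every Control mouse lay ICR mice 102, 103, 105, 106 and 112 at 36 of 47, 49 of 50, 39 of 50, 33 of 49 and 15 of 50 regions. The same count was 22 of 49 and 41 of 50 for LFD mice 47 and 48, 40 and 21 of 50 for LFCR mice 69 and 72, and 18 of 50 for Obese mouse 22. At Serpinh1 LFCR mice 63, 67, 69 and 72 had 12.5%, 16.4%, 32.5% and 55.2%, and at Ptpn6 they had 77.7%, 75.1%, 59.8% and 54.2%. Over all CpGs measured in the mice concerned, MCR differed from ICR by -6.11 points (two-sided exact permutation p = 0.0179, adjusted over 3 diets to p = 0.0536), from LFD, without mouse 46, by -4.83 points (exact permutation p = 0.1, the smallest that 3 against 3 mice allow; adjusted p = 0.15) and from LFCR by -3.15 points (exact permutation p = 0.314). The group means hide a split between mice. Over the tested CpGs with a value, the mean level was 47.1% to 47.8% in the MCR mice. It was 47.1% and 47.5% in LFCR mice 63 and 67, but 52.6% and 54.9% in LFCR mice 69 and 72. LFD mice 42, 47 and 48 had 48.8%, 55.0% and 53.0%.

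At CpGs under 5% in ICR the mean level was 1.07%, 1.05% and 1.61% in MCR mice 85, 95 and 96, the first pair below every Control mouse, and 1.55% to 1.87% in Control. The part of this background in the differences was not tested. Control mouse 1 had a value at 79.1% of the tested CpGs, and the other Control mice at 93.5% to 99.9%. The average coverage of the tested CpGs, taken by the authors over 21 libraries, had a median of 55.9 reads; depth per library was not used here, so the counting error of a single value is unknown.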

How the data were processed

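Per the submitters' processing notes, the authors processed RRBS reads with Bismark on mm10; versions and filters are not given in the sources used here. The deposited table gives each library's methylation level as a fraction of reads (printed in percent) and an average coverage signal per CpG, without depth per library. Its group mean columns carry other group names than the labels (CON, DIO, FOB, HCCR, IER, LCCR) and were not used; each library was matched to its sample by the mouse number in the title, and its group is that of the labels. Members and gene lists were chosen with earlier results of these data known. Lists share members, such as Runx3, which is counted in the T and NK, shared leukocyte and tumour suppressor lists. The named genes are the called units of largest difference: 10 gene bodies and 5 3'UTRs, runs and intergenic runs in each direction, 3 single CpGs in each, up to 5 genes called in both directions, and up to 3 list members of smallest p; symbols of predicted genes were passed over. Other list members were named after their values were seen. A unit's level is the mean of its CpG centres plus the mouse's mean deviation, given where the mouse has at least 0.5 of the CpGs. limma (3.58.1, R 4.3.3) was fitted to the 8 libraries with moderated variance, Benjamini-Hochberg adjustment over all units of a kind, every mouse weighted alike, and was tested on simulated data. Class means were compared by exact permutation tests. Features, island relations and gene names are the authors' annotation. Nothing in the labels states batches; p-values measure the spread between mice. Alternatives were coverage of 5 or 20 reads, an arcsine scale, a difference of 10 points, values in all 8 libraries, 10 CpGs per body, gaps of 50 bases, 21 libraries, and leaving out each mouse.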

Additional observations from a re-analysis of the deposited data

Results flagged for a closer look

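Among 108 named units with 4 or 5 Control values, 4 had a Control mouse far from the other Control mice, where chance flags about 1 in 20 groups. The Nrgn gene body was at 82.6% in Control mouse 2 and at 68.0% to 69.5% in the other Control mice. The Aqp7 gene body was at 85.7% in Control mouse 2 and at 76.4% to 77.9% in the others. The 3'UTR of Adprhl2 was at 81.3% in Control mouse 2 and at 59.4% to 64.0% in the others. The 3'UTR of Fads6 was at 43.0% in Control mouse 10 and at 65.5% to 72.7% in the others.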

How the results depend on the processing

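No paired analysis was possible because mouse numbers are not shared between groups. Of 1466 comparisons of 112 named units with an alternative setting, 1462 kept their call and direction, 4 lost the call and 0 reversed. The 4 are given in the report (the body of Runx1, the body of Grhl2 in 2 settings, and a Tbx3os1 run). The units were named because they were called in these same mice, so a kept call is not an independent test. With a difference of at least 10 points, 1714 gene bodies were called (86 higher, 1628 lower) in place of 3054, and with neighbours at most 50 bp apart, 2840 runs of 3890 (390 higher, 2450 lower) in place of 4264 of 5754, where fewer runs were tested. On the arcsine scale, in its own units, shelf minus open sea was -0.00506 (exact permutation adjusted p = 0.0857), and at the matched ICR level shore minus open sea was -0.00375 (adjusted p = 0.306) and shelf minus open sea -0.00693 (adjusted p = 0.0952); the cause was not tested. Leaving out each mouse gave 36579 to 46656 called CpGs, 2819 to 3117 gene bodies, 625 to 725 3'UTRs and 3903 to 4410 runs. It gave class differences of -3.12 to -2.63 points for gene bodies minus intergenic CpGs, 4.02 to 4.55 for islands minus open sea, 1.75 to 2.06 for shores and -0.57 to -0.389 for shelves, with adjusted p up to 0.0571. At the matched level these were -2.68 to -1.84 for islands, -0.945 to -0.664 for shores and -0.821 to -0.611 for shelves, with adjusted p up to 0.0653. With 2 MCR mice or 4 Control mice, few splits of the mice exist. The smallest possible p for 3 against 4 mice is 0.0286. Without Control mouse 5 the matched differences of islands, shores and shelves each had an exact permutation p of 0.0571, above that smallest value. Missing depth per library limits the precision of single CpGs, and 3 MCR mice limit every p.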
